A study of Mus musculus with 3 samples.

Results

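The genes described here are 49 matrix glycoproteins and proteoglycans, chosen by name from the 55573 genes listed in UMI-RNAseq tables of NIH3T3 cells. UMI-RNAseq tags each RNA molecule with a unique molecular identifier, so that copies made during amplification are counted once. NIH3T3 is an established mouse embryonic fibroblast line. The cells were untreated and unmodified and were grown in DMEM with fetal bovine serum, penicillin and streptomycin. There were 3 libraries of this single condition, named library 1 to 3, and nothing states that they came from separate cultures, so the spread between them may be technical. All 49 names were found, each in 1 row. The values are FPKM as the authors deposited them, that is, fragments divided by the gene's length in kilobases and by the library's total, per 1000000 counted fragments. Library totals recovered from these values were 14423209, 13959723 and 14307241 fragments. No condition was compared with another, and all comparisons below are between genes or between libraries.

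Matrix glycoproteins are secreted proteins that cells bind through integrins and other receptors, and that tie collagens, elastic fibres and growth factors together. Proteoglycans are core proteins that carry chains of sugars called glycosaminoglycans, either in the matrix or at the cell surface. Fibroblasts make both, and many of these genes belong to small families whose members differ by tissue.

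Of 10 fibroblast markers, 9 had a mean of at least 1 FPKM, led by Col1a2 at 1542 ± 11.7 FPKM (SD, n = 3), Vim at 1489 ± 14.0 and Col1a1 at 1218 ± 7.80, while Pdgfrb was at 31.6, S100a4 at 2.97 and Fap at 0.0378. Since the labels' extraction text describes retinas, 12 retina markers were checked. None reached a mean of 1 FPKM, the highest were Rcvrn at 0.363, Sag at 0.353 and Opn1sw at 0.321, and Opn1mw and Nrl were at 0. Their summed level was 1.01 to 1.61 FPKM in the libraries. Of 8 markers each, 2 cartilage, 2 endothelial, 1 epithelial and 1 blood cell gene reached 1 FPKM, and the cartilage marker Sox9 lay above some fibroblast markers. The 3 highest per list were Sox9 at 42.5, Col11a2 at 1.56 and Col2a1 at 0.284 for cartilage, Vwf at 1.64, Cdh5 at 1.35 and Pecam1 at 0.0662 for endothelium, Krt14 at 8.39, Cdh1 at 0.442 and Krt8 at 0.0241 for epithelium, and Lyz2 at 2.54, Hba-a1 at 0.0387 and Csf1r at 0.0343 for blood cells. The summed levels ranged from 43.5 to 45.4 FPKM for the cartilage list, from 2.71 to 3.42 for the endothelial list, from 8.73 to 9.07 for the epithelial list and from 2.25 to 2.87 for the blood cell list. Col9a1, Matn3, Hapln1, Cldn5, Emcn, Epcam, Krt18, Cldn3, Krt5, Cd3e, Itgam and Hbb-bs were at 0.

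NIH3T3 cells expressed 32 of the 49 matrix genes at a mean of at least 1 FPKM, the limit used here for calling a gene detected. That is 65.3% of the members, against 23.2% of all 55573 genes listed and 49.2% of the 21980 protein-coding genes. The members were chosen with earlier results of these data known, so this share does not stand for matrix genes in general. Of 43 other matrix glycoproteins and proteoglycans, 14 reached the limit. At least 10 FPKM was reached by 26 members, or 53.1%, against 14.8% of all genes. All 49 members are protein-coding, and the share of protein-coding genes alone was not counted at 10 or 100 FPKM. Of the members, 12 reached 100 FPKM, 14 lay between 10 and 100, 6 between 1 and 10, 12 were below 1 with at least 1 fragment, and 5 had no fragment in any library. Among the 12905 detected genes, 14 members stood in the highest 10%.

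The expressed members were very unequal. Together they summed to 12812 ± 82.5 FPKM (SD, n = 3), and took 1.86% ± 0.0330 of the summed FPKM and 3.30% ± 0.0410 of the fragments of a library. Fn1 and Spp1 alone held 62.0% ± 0.219 of the members' FPKM, and the 5 highest (Fn1, Spp1, Fbln2, Bgn and Sparc) held 81.4% ± 0.0487.

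**Figure D1:**
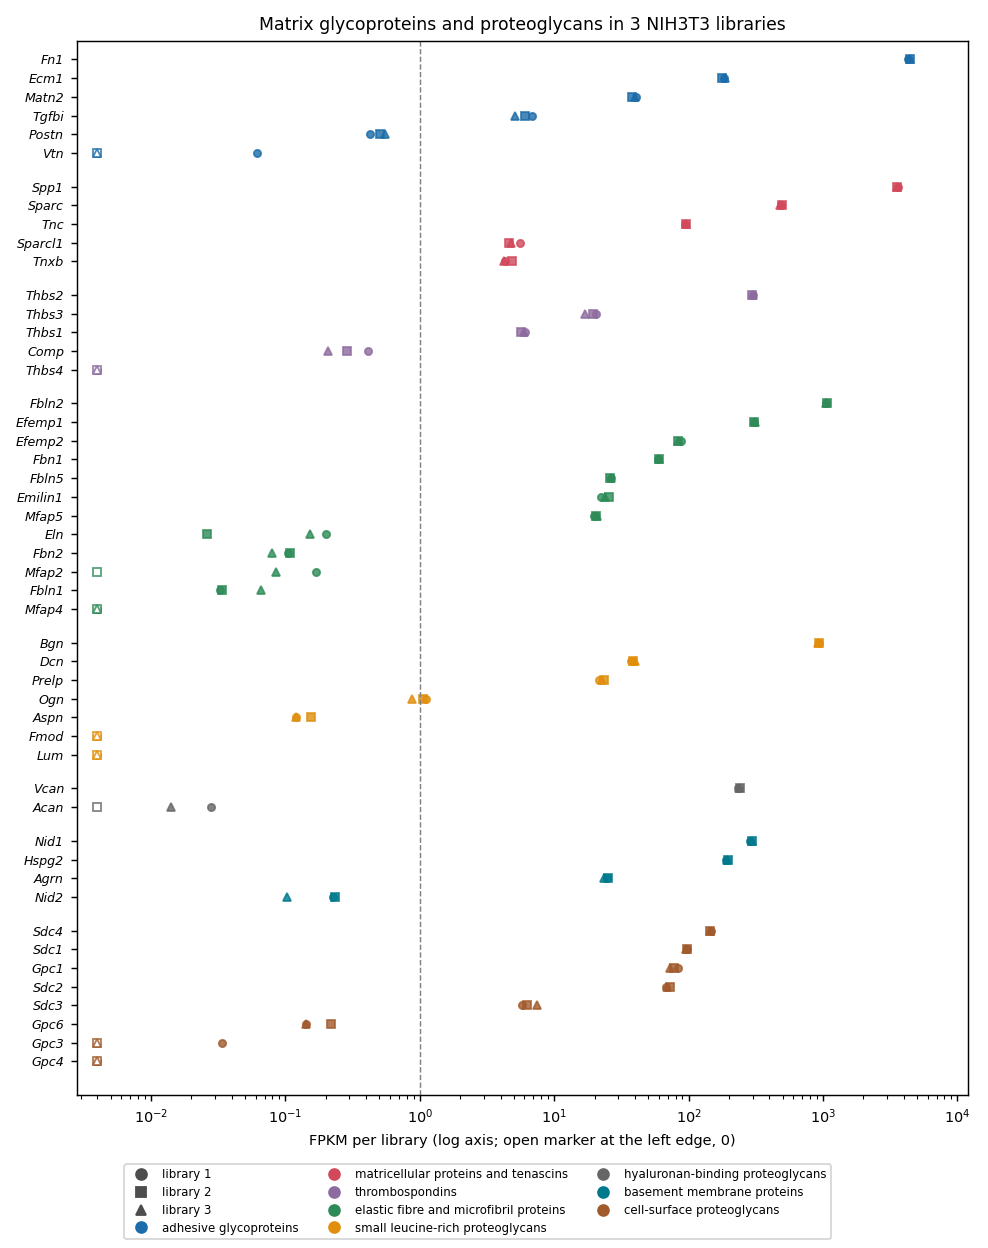
FPKM of each of the 49 members (rows, grouped and coloured by class) in each library (circle, square and triangle) on a log axis, with open markers at the left edge for values of 0 and a dashed line at 1 FPKM. Most classes hold 1 gene far above the rest, such as Fn1 at 4377 and Bgn at 932.9, and the markers of 1 gene lie furthest apart among genes below 1 FPKM.

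Adhesive glycoproteins were the largest class by FPKM, with 35.9% ± 0.441 of the members' sum, and 4 of 6 were detected. Fn1 encodes fibronectin, the integrin ligand that cells assemble into fibrils. It lies at chr1:71585520-71653200 (GRCm38, minus strand). Fn1 stood at 4278, 4421 and 4433 FPKM in libraries 1 to 3, a mean of 4377 ± 86.1, and ranked 4 of all genes. Library 1 was the lowest for Fn1, and Fn1 made up 95.03% of its class. Ecm1, a secreted glycoprotein of skin and vessels, was at 183.7, 178.3 and 185.6 FPKM. Matn2, a matrilin that joins matrix filaments, was at 40.8, 37.9 and 40.1 FPKM. Tgfbi and Postn are related proteins with fasciclin domains, both known as targets of TGF-beta. Tgfbi was at 6.89, 6.03 and 5.12 FPKM, and Postn, encoding periostin, at 0.427, 0.504 and 0.553 FPKM. The order Tgfbi over Postn held in each library although the ratio ranged from 16.2 in library 1 to 9.26 in library 3. Vtn, encoding the serum adhesion protein vitronectin that the liver makes, had 1 fragment, in library 1.

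Matricellular proteins and tenascins, which modulate contact between cells and matrix more than they build it, held 32.5% ± 0.315 of the sum, and all 5 were detected. Spp1 encodes osteopontin, a phosphorylated integrin ligand first known from bone, and lies at chr5:104435118-104441050 (plus strand). It stood at 3586, 3555 and 3563 FPKM, a mean of 3568 ± 16.2, and ranked 6 of all genes. The 3 Spp1 values lay within 1.01-fold of each other. Sparc, a collagen-binding protein, was at 487.6, 496.1 and 482.1 FPKM, and its relative Sparcl1 at 5.54, 4.65 and 4.80. Sparc thus exceeded Sparcl1 by 98.4-fold ± 9.53 (SD of the ratio, n = 3). Tnc, the tenascin of embryos and wounds, was at 93.5, 95.8 and 95.7 FPKM, and Tnxb, the tenascin of loose connective tissue, at 4.28, 4.83 and 4.26. The ratio of Tnc to Tnxb was 21.4 ± 1.39.

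Fn1 and Spp1 can be ordered only together with the gene length behind the FPKM. For 47 of 49 members the length taken for the FPKM was that of the average annotated isoform. This length is 4086 nt for Fn1 with 17 isoforms and 1063 nt for Spp1 with 7. The 47 include the 5 members at 0, whose values cannot show a length. Fn1 exceeded Spp1 by 1.23-fold ± 0.0294 in FPKM and was higher in each library. Divided by the longest isoform, 8315 nt and 1507 nt, Fn1 fell to a mean of 2151 FPKM and Spp1 to 2517, and the ratio was 0.855 ± 0.0205. Without any length, Fn1 had 4.72 ± 0.113 times the fragments of Spp1. The files do not give the isoforms in use, so the order of these genes per molecule depends on the length chosen.

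**Figure D2:**
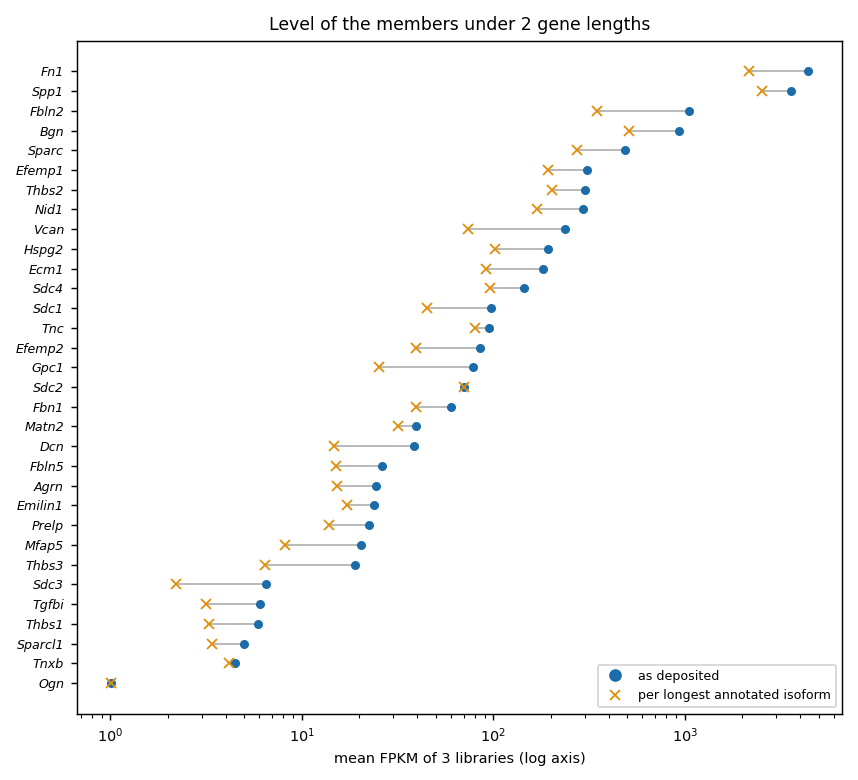
Mean FPKM of the 32 detected members (rows) on a log axis, as deposited (circles) and divided by the longest annotated isoform (crosses). Vcan, Gpc1 and Fbln2 move by 3.20, 3.07 and 3.03-fold, Sdc2 and Ogn with 1 isoform each do not move, and Fn1 changes place with Spp1.

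Elastic fibre and microfibril proteins held 12.3% ± 0.0364 of the sum, with 7 of 12 detected. Fbln2, a fibulin that links elastic fibres to fibronectin and basement membranes, was at 1054, 1065 and 1054 FPKM and ranked 50. It lies at chr6:91212455-91272540 (plus strand), and made up 66.8% of its class. Its relative Fbln1 had 4 fragments in all, a mean of 0.0443 FPKM. Taken as a ratio of pooled fragments per length, Fbln1 stood at 4.20e-05 of Fbln2, with an exact 95% interval of 1.14e-05 to 0.000107 for counting error. With the longest isoforms the means were 0.0256 FPKM for Fbln1 and 348.6 for Fbln2. Efemp1 (fibulin-3) was at 305.1, 308.3 and 311.9 FPKM and Efemp2 (fibulin-4), needed for elastic fibre assembly, at 88.3, 83.4 and 84.05. Fbln5, a fibulin that binds elastin and integrins, was at 26.4, 26.0 and 26.4 FPKM. Efemp1 was 3.62-fold ± 0.142 above Efemp2, and Fbln5 stood at 0.308 ± 0.00779 of Efemp2.

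Among the fibre components themselves, Fbn1, encoding the microfibril backbone fibrillin-1, was at 58.8, 60.6 and 60.4 FPKM. Fbn2, the fibrillin known mainly from development, had 11 fragments and a mean of 0.0971 FPKM. Fbn1 exceeded Fbn2 by 629.4-fold ± 117, and by 1731-fold with the longest isoform of each. Emilin1, which lies between elastin and microfibrils, was at 22.5, 25.4 and 23.9 FPKM. Mfap5, a small microfibril protein, was at 19.8, 20.4 and 20.9 FPKM, while its relative Mfap2 had 3 fragments and Mfap4 none. Mfap2 stood at 0.00419 of Mfap5 (95% interval 0.000863 to 0.0123), and the means with the longest isoforms were 0.0648 and 8.20 FPKM. Eln, encoding elastin itself, had 8, 1 and 6 fragments, a mean of 0.127 FPKM. The 7 detected genes of this class stood above elastin by the limit that picked them, a mean of at least 1 FPKM. Fbn2, Mfap2, Fbln1 and Mfap4 had lower means than elastin, each on 11 fragments or fewer.

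Thrombospondins, calcium-binding glycoproteins that act on adhesion and vessel growth, held 2.54% ± 0.0347 of the sum. Thbs2 was at 300.8, 298.9 and 299.8 FPKM, within 1.01-fold across libraries, and made up 92.3% ± 0.529 of the class. Thbs1, which has the same domain build and trimeric form, was at 6.05, 5.64 and 5.95 FPKM, or 0.0196 ± 0.000665 of Thbs2. Among the pentameric members, Thbs3 was at 20.4, 19.35 and 16.9 FPKM, Comp, the thrombospondin of cartilage and tendon, at 0.415, 0.286 and 0.209, and Thbs4 at 0. With Thbs4 set to 3 fragments over all libraries, which is 0.0388 FPKM, Thbs3 was at least 487.5-fold higher, or 291.2-fold with the longest isoforms. Thbs3 overlaps Mtx1 (27.1 FPKM) by 318 nt on the opposite strand, and whether the counting used strand is not given in the sources used here.

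Small leucine-rich proteoglycans, which bind collagen fibrils and set their width, held 7.77% ± 0.0726 of the sum, and 4 of 7 were detected. Bgn, encoding biglycan, lies at chrX:73483602-73495933 (plus strand) and was at 935.7, 939.5 and 923.7 FPKM, 93.8% ± 0.212 of the class. Dcn, encoding decorin, its closest relative, was at 37.2, 38.3 and 39.8 FPKM. The ratio of Bgn to Dcn was 24.3 ± 0.991, which is 4.602 on the log2 scale, and 3.84 with the longest protein-coding isoforms. Prelp, which binds collagen and heparan sulfate, was at 21.4, 23.4 and 22.7 FPKM. Ogn, encoding osteoglycin, was at 1.11, 1.06 and 0.872 FPKM, so that its mean of 1.01 lay just inside the limit of 1 and library 3 lay below it. The member just outside the limit was Postn, at 0.494. Aspn (asporin) had 13 fragments, a mean of 0.131 FPKM, and Dcn was 296.5-fold ± 42.9 above it, or 114.0-fold with the longest isoforms. Lum (lumican) and Fmod (fibromodulin), collagen-binding proteins of cornea and tendon, had no fragment, which at 3 fragments over all libraries allows up to 0.0287 and 0.0385 FPKM.

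Most of these genes lie in clusters, and in each cluster with a clearly expressed gene the related neighbours named here were low. Other genes in the clusters were not looked at. On chromosome 10, Dcn (38.4 FPKM) shares 202.8 kb with Lum, Kera and Epyc, all at 0. On chromosome 1, Prelp (22.5) shares 138.0 kb with Fmod at 0. On chromosome 13, within 119.7 kb, Ogn was at 1.01, Aspn at 0.131, Omd at 0.123 and Ecm2 at 0.0861 FPKM.

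The 250 bases upstream of the RefSeq starts of Prelp and Fmod are shown because these neighbours, in the same class and cluster, differ by at least 585.1-fold. They come from RefSeq on GRCm38.p6, are written 5′ to 3′ on the strand of the gene, and have each CG in capitals. Prelp occupies chr1:133921402-133921651 (minus strand) and Fmod chr1:134037004-134037253 (plus strand).
Prelp: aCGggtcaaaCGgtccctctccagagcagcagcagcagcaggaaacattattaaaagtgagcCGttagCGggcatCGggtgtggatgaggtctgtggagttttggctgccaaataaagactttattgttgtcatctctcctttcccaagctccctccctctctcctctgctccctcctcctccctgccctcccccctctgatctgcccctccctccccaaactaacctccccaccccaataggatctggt
Fmod: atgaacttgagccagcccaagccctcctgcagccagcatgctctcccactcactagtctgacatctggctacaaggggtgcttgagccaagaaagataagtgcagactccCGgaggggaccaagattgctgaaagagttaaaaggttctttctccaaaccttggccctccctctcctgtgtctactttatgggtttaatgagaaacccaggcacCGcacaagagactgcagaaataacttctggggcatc
Prelp holds 5 CG and Fmod 2. Of all 32851 promoter windows of this length, 55.6% hold at least as many as Prelp and 81.2% at least as many as Fmod, so neither window stands apart in this count.

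Hyaluronan-binding proteoglycans were represented by Vcan alone. Vcan, encoding versican, the large chondroitin sulfate proteoglycan of soft tissues, was at 232.3, 242.4 and 236.6 FPKM. Acan, encoding aggrecan of cartilage, had 2, 0 and 1 fragments, a mean of 0.0140 FPKM. From pooled fragments, Vcan exceeded Acan by 16784-fold, with an exact 95% interval of 5743 to 81390 for counting error. The Vcan level rests on a length of 3885 nt, the mean of 9 isoforms that reach 12427 nt, and was 74.1 FPKM with the longest, beside 0.00945 for Acan.

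The windows upstream of Vcan at chr13:89742513-89742762 (minus strand) and Acan at chr7:79052976-79053225 (plus strand) are shown in the same way, as those of the pair with the widest measured ratio among the proteoglycans.
Vcan: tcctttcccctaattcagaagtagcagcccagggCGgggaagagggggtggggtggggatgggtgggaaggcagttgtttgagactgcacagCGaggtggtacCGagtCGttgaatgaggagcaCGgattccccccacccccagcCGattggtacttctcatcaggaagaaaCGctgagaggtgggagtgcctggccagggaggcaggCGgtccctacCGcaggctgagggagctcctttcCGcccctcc
Acan: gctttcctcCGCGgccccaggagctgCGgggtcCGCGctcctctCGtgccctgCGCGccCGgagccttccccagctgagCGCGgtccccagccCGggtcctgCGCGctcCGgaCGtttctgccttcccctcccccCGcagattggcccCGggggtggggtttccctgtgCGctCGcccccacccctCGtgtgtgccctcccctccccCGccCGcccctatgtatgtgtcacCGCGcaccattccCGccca
Acan holds 26 CG and Vcan 10. At least as many occur in 9.59% of all windows for Acan and in 37.8% for Vcan, and the gene with 3 fragments had more CG than the gene with 39312. Over the 26 members with 1 RefSeq window each, the median was 8 CG in the 19 with at least 1 FPKM (range 1 to 32) and 18 in the 7 below it (range 2 to 26), against 6 over all windows. The sequence TATAAA, searched on both strands, was found in 5 of the 26 (Aspn, Ecm1, Ogn, Thbs2 and Vtn), and in 12.4% of all windows. These counts describe the letters of the windows only.

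Basement membrane proteins held 3.98% ± 0.0493 of the sum, and 3 of 4 were detected. Nid1, encoding nidogen-1, which joins laminin to collagen IV, was at 286.1, 296.6 and 295.4 FPKM. Nid2 had 27 fragments, a mean of 0.188 FPKM, and lies over Rtraf (74.6 FPKM) by 437 nt on the opposite strand. Nid1 was 1796-fold ± 915 above Nid2, a ratio whose spread comes with 5 to 11 Nid2 fragments per library. Hspg2, encoding the heparan sulfate proteoglycan perlecan, was at 188.9, 196.6 and 193.5 FPKM, and Agrn, encoding agrin, known from the nerve-muscle junction, at 24.6, 25.0 and 23.6. Hspg2 was 7.91-fold ± 0.261 above Agrn.

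Cell-surface proteoglycans held 3.09% ± 0.0639 of the sum, and 5 of 8 were detected. Sdc4, the highest gene, held 36.6% of the class, the lowest share of a leading gene among the 8 classes. Syndecans span the membrane and carry heparan sulfate chains that bind growth factors. All 4 were detected and summed to 318.1 ± 2.25 FPKM. Sdc4 was at 145.8, 144.3 and 144.3 FPKM, Sdc1 at 97.7, 97.4 and 95.5, Sdc2 at 68.35, 72.5 and 68.7, and Sdc3, the syndecan of nerve and muscle, at 5.80, 6.29 and 7.50. In FPKM the order was the same in each library, and their shares were 45.5%, 30.5%, 22.0% and 2.05%. With the longest isoforms Sdc2 (69.9 FPKM) stood above Sdc1 (44.8), and Sdc2 had 10515 fragments against 6041 for Sdc1. Sdc2 stood at 0.482 ± 0.0178 of Sdc4 in FPKM, while in fragments without a length it was the higher of the pair.

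Glypicans carry heparan sulfate too but are held by a lipid anchor. Gpc1 was at 83.5, 77.5 and 72.6 FPKM and made up 99.8% ± 0.0464 of the 4 glypicans listed. Gpc6 had 21 fragments (0.168 FPKM), Gpc3 had 1 and Gpc4 none. Gpc1 was 482.7-fold ± 120 above Gpc6 and at least 2938-fold above Gpc4. With the longest isoforms these were 222.2-fold and at least 956.2-fold. Of the distinct 75-nt words of Gpc1, 17.5% also occur, on either strand, in transcripts of other genes. The share was 19.6% for Fbn1, 8.55% for Spp1, 7.78% for Prelp and 7.02% for Nid2, and at most 5% for the others. For Gpc1, Fbn1, Prelp and Nid2 the gene that shares most words overlaps on the opposite strand, and for Spp1 on the same strand.

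**Figure D3:**
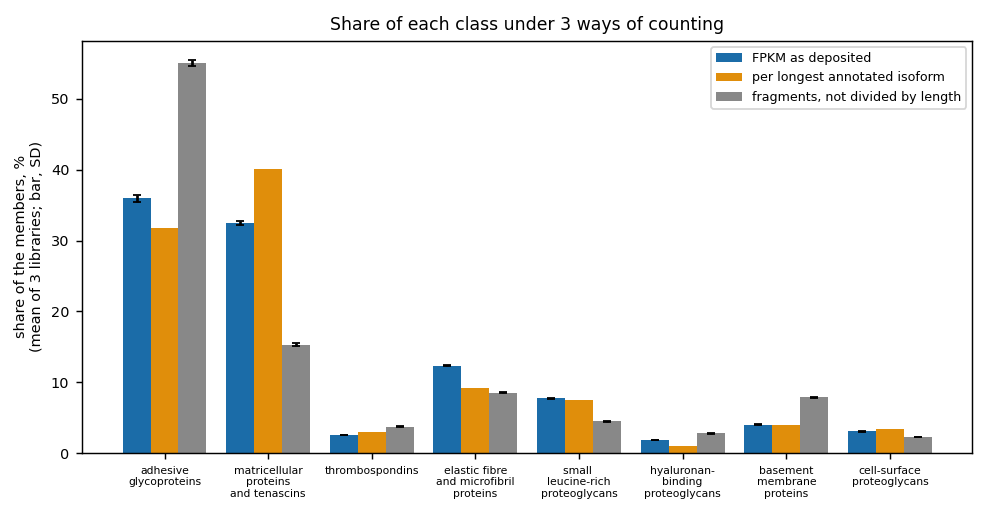
Share of the members' total held by each of the 8 classes, in percent, from FPKM as deposited, from values per longest isoform and from fragments not divided by length, as the mean of 3 libraries (error bars on the first and the last are SD, and none is drawn for the second). Adhesive glycoproteins lead in FPKM at 35.9% and in fragments at 55.0%, and matricellular proteins lead at 40.1% with the longest isoform.

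The comparison of relatives asked which gene of each pair was higher. Of 26 pairs chosen by name, 16 had no gene that stayed under 3 fragments in every library, and in all 16 the same gene was higher in each library. The libraries may be technical repeats, so this agreement does not show that the order would hold in other cultures. In 12 of the 16 the mean ratio was at least 10-fold and in none was it under 2-fold with the deposited lengths. Both genes had a mean of at least 1 FPKM in only 10 of the 16. Some genes, such as Sdc3, Sdc4, Efemp2 and Dcn, occur in more than 1 pair. Pairs of unrelated genes were not counted, so it is not known how often such ratios occur among other genes. With the longest isoforms Sdc2 stood at 0.728 of Sdc4, and in fragments without a length Fbln5 to Efemp2 was -0.25 on the log2 scale. An exact permutation test that flips the sign of each library's log2 ratio (two-sided) gave p = 0.25 for each, the smallest p that 3 libraries allow, and 0.25 after Benjamini-Hochberg adjustment over the tested pairs. No pair could therefore pass a limit of 0.05. The narrowest ratios were Sdc2 to Sdc4 at -1.05 on the log2 scale, Fbln5 to Efemp2 at -1.70 and Efemp1 to Efemp2. Thbs3 exceeded Comp by 65.9-fold ± 16.0, Sdc1 exceeded Sdc3 by 15.0-fold ± 2.10, and Sdc3 stood at 0.0451 ± 0.00625 of Sdc4, or 0.0231 with the longest isoforms. Of the other 10 pairs, 4 had one gene at 0 and gave a bound, 5 had 1 to 4 fragments for one gene and gave a counting interval, and Lum and Fmod were both at 0. The lowest bound was for Gpc6, at least 6.33-fold above Gpc4, and Gpc3 stood at 0.0682 of Gpc6 (95% interval 0.00165 to 0.424). Fn1 exceeded Vtn, with its single fragment, by 210184-fold (95% interval 37724 to 8.30e+06).

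**Figure D4:**
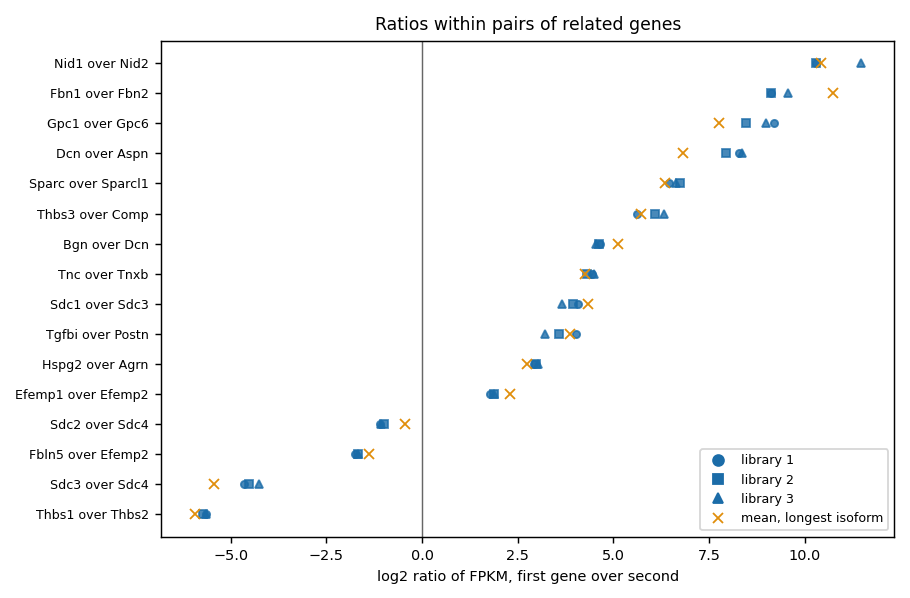
Ratio of FPKM within each of the 16 tested pairs (rows) on the log2 scale, in each library (blue) and as the mean with the longest isoform (crosses). Every pair keeps its side of 0 in the 3 libraries, from Thbs1 over Thbs2 at a mean of -5.67 to Nid1 over Nid2, and the widest scatter goes with genes of few fragments.

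Members with close levels could not all be ordered. Sdc1 and Tnc overlapped in their values and changed order between libraries, as did Matn2 and Dcn, Agrn and Emilin1, Mfap5 and Thbs3, Sparcl1 and Tnxb, and any pair among Sdc3, Tgfbi and Thbs1. The values of Efemp2 and Gpc1, of Emilin1 and Prelp and of Tgfbi and Sparcl1 overlapped too, but within each library the first of each pair was the higher in FPKM. Efemp1, Thbs2 and Nid1, at 308.5 ± 3.40, 299.8 ± 0.935 and 292.7 ± 5.74 FPKM, did not overlap, but with the longest isoform Thbs2 (201.3) stood above Efemp1 (193.7).

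The libraries gave like values for the detected members. The median ratio of the highest to the lowest library was 1.05 over the 32 members and 1.09 over all detected genes, and the median coefficient of variation among genes of at least 10 FPKM was 1.996% for members and 3.02% for all such genes. A chi-square test of recovered fragments against the library totals asked whether counting error alone covers this spread. It did not for 9 of 32 members at an unadjusted p under 0.05 (28.1%), against 9.77% of the 12905 detected genes. After Benjamini-Hochberg adjustment over all these genes 3 members remained past 0.05, or 9.38%, against 2.15%. The test finds smaller differences where there are more fragments, so genes of unlike level are not treated alike. By this chi-square test they were Fn1 (adjusted p = 3.67e-41), Hspg2 (adjusted p = 0.0135) and Gpc1 (adjusted p = 0.0307). Fn1 varied by 1.97% where counting error alone gives 0.198%, and Gpc1 by 6.97% against 2.58%. The other 6 were Nid1, Vcan, Sdc2, Emilin1, Thbs3 and Tnxb.

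Of the 9, Fn1, Nid1, Vcan, Hspg2, Sdc2 and Emilin1 were lowest in library 1, and this was looked at by gene length after the values were seen. Among members whose longest isoform is at least 5000 nt, 6 of 11 (54.5%) were lowest in library 1, and 43.6% of 2566 genes of that length were too. Among members of 2500 to 5000 nt the count was 5 of 15, against 32.4% of genes, and among shorter members 2 of 6, against 32.9%. Gpc1 and Thbs3 were highest in library 1. Without library 1, 2 of the 32 members exceeded counting error at an unadjusted p under 0.05, beside 7.01% of all detected genes. Without library 2 there were 7 members, beside 9.24% of genes, and without library 3 there were 9, beside 9.19%. The part of RNA quality or fragment length in this was not tested.

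**Figure D5:**
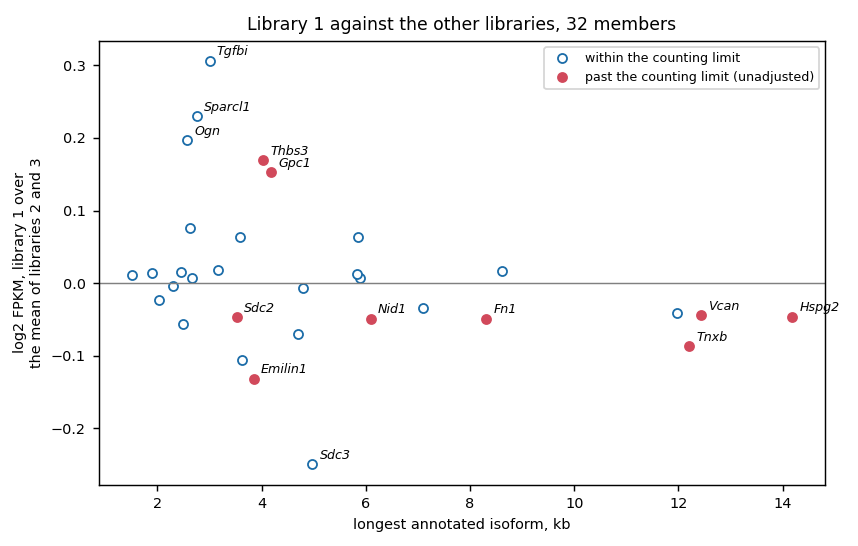
Difference between library 1 and the mean of libraries 2 and 3 in FPKM (log2, vertical axis) for the 32 detected members against the length of the longest annotated isoform (kb, horizontal axis), with filled points for the 9 members past the counting limit. Fn1, Nid1, Vcan, Hspg2 and Tnxb lie below 0, Gpc1 and Thbs3 above it, and the largest differences within the counting limit belong to low members such as Tgfbi and Sdc3.

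A mean of 1 FPKM was reached by 49.2% of the 21980 protein-coding genes. Of 43 other matrix glycoproteins and proteoglycans, 14 reached it and 10 were at 0. The highest were Mfge8, which helps phagocytes bind dying cells, at 241.9 FPKM, Pcolce, which helps to process procollagen, at 233.0, and Ltbp3, which holds latent TGF-beta, at 204.0. The list summed to 1226 ± 9.66 FPKM, well below the members' sum, and its median was 0.122 FPKM.

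Enzymes that build glycosaminoglycans were detected more widely, 25 of 28, beside 49.2% of protein-coding genes, with a median of 21.5 FPKM. Ugdh, which makes the sugar donor UDP-glucuronic acid, led at 89.9 ± 1.99 FPKM, before Ndst1, a heparan sulfate sulfotransferase, at 83.0 ± 0.991 and Ext2, a heparan sulfate polymerase, at 81.2 ± 3.58. The first step of chain building was read from Xylt2 at 32.04 ± 1.96 FPKM and hardly from its relative Xylt1 at 0.0357, and Chsy3 was at 0. The hyaluronan synthases Has1, Has2 and Has3 were at 2.79, 1.58 and 1.62 FPKM. Of 8 matrix receptors other than integrins, 7 were detected, led by the endocytic receptor Lrp1 at 1014 ± 20.8 FPKM, the collagen receptor Ddr2 at 256.3 ± 1.62 and the thrombospondin receptor Cd47 at 126.1 ± 0.955. Cd44, the hyaluronan receptor, was at 111.6 ± 0.777 FPKM and Cd36 at 0.0188.

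Genes that overlap a member in the annotation and reached 1 FPKM were Cenpp over Aspn by 7 nt (1.72 FPKM), Mus81 over Efemp2 by 173 nt (20.1), Mapk7 over Mfap4 by 89 nt (25.0) and 8030451A03Rik over Tnc by 176 nt (1.80), all on the opposite strand, besides Mtx1 and Rtraf. Gm42793 (4.22 FPKM) overlaps Spp1 by 309 nt on the same strand. Mfap4 had no fragment although Mapk7 was at 25.0 FPKM. Aspn and Nid2, at 0.131 and 0.188 FPKM, are the low members that had fragments and such a neighbour. Whether any of these fragments came from the neighbour was not tested.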

How the data were processed

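The libraries, 3 in number, were made from untreated NIH3T3 cells by UMI-RNAseq. Per the study's methods and processing notes, identifiers were handled with UMI-tools 1.0.0, reads were mapped with HISAT2 2.0.4 and duplicates with the same identifier and location were removed. Genes were counted with HTSeq 0.6.1. The authors divided counts by gene length and library total and deposited FPKM, 1 column per library, not pooled. The genome build and annotation of the counting are not given in the sources used here. Both deposited tables hold identical values, and 0 columns were left unused.

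Since FPKM values are normalised, levels, class shares and the sign-flip test used no model for counts. The chi-square test and the exact intervals used fragments recovered from the FPKM. Whole fragments were recovered from the smallest whole-number ratios and the isoform lengths of GENCODE M21 (GRCm38), in which 55480 gene IDs were found. For Hspg2 and Tnxb the length (7475 and 11374 nt) was implied by the ratios. On simulated fragments, 3 of 3 library totals and 100% of 24536 genes were recovered. The true whole-number lengths were given there, so this does not test recovery where the length is unknown. The chi-square test called 100% of 200 genes changed 4-fold and 4.71% of 9790 unchanged genes. The simulated libraries differed by counting error alone apart from these changes, and smaller changes were not simulated. Tests and exact 95% intervals came from scipy 1.17.1 and overlaps from bedtools 2.31.1, under Python 3.11.15 with pandas 2.3.3 and numpy 2.4.6. Intervals and the floor of 3 fragments cover counting error only. Log2 ratios use FPKM without a pseudocount.

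Promoter windows came from RefSeq tables, in which 34 of 49 members had an entry. The members and lists were chosen with earlier results of these data known. By rule, every member was accounted for, detected members were given in every library and others by mean or fragments, and the 3 highest genes of each other list were named, as were overlapping genes of at least 1 FPKM. Fap, Pdgfrb, S100a4, Cd44, Cd36, Xylt1, Xylt2, Chsy3, the Has genes, cluster neighbours and marker genes at 0 were named after their values were seen. Alternatives were other gene lengths, pseudocounts of 1 and 0.1, other detection limits, TPM, the median over libraries, scaling by median of ratios, leaving out Fn1 and leaving out each library.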

Additional observations from a re-analysis of the deposited data

How the results depend on the processing

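Levels of single members stayed within 1 SD of the main value with median-of-ratios scaling for all 49. Leaving out a library or taking the median could not move a mean of 3 values by more than 1 SD, so these settings say nothing on the levels' stability. By more than 1 SD, 33 moved with the longest isoform, 31 with the longest protein-coding isoform and 39 as TPM, which rescales all genes alike. With the longest isoform the class shares were 31.8% for adhesive glycoproteins, 40.1% for matricellular proteins and tenascins, 2.95% for thrombospondins, 9.24% for elastic fibre proteins, 7.55% for small leucine-rich proteoglycans, 1.03% for hyaluronan-binding proteoglycans and 3.32% for cell-surface proteoglycans. Without Fn1 they were, in that order, 2.71%, 49.3%, 3.85%, 18.8%, 11.8%, 2.81% and 4.70%, with 6.05% for basement membrane proteins. From fragments not divided by length they were 55.0%, 15.3%, 3.73%, 8.53%, 4.50%, 2.79% and 2.24%, with 7.88% for basement membrane proteins.

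Of 128 alternative values of the log2 ratios, the direction turned in 1, Sdc2 over Sdc4 in fragments, at 0.063. Only the settings of gene length, with fragments without a length among them, could turn it. A pseudocount keeps the order of a pair, and leaving out a library could not turn ratios of the same sign in each library. The bound for Thbs3 over Thbs4 was 291.2-fold with the longest isoform, 368.3 with the longest coding isoform and 367.3 in fragments. For Gpc1 over Gpc4 it was 956.2, 956.2 and 1506, and for Gpc6 over Gpc4 4.48 with the longest and 5.32 with the longest coding isoform. Asking for at least 1 FPKM in both genes left 10 of 16 pairs. Leaving out a library gave 2 to 9 members that differed beyond counting error, lowest without library 1. No paired comparison between conditions was possible because all libraries share a condition. Depth limits the 17 members below 1 FPKM, which rest on 48 fragments or fewer.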
